A study of Mus musculus with 6 samples.

Results

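The proteasome genes were followed in 6 bulk RNA-seq libraries of sorted mouse bone marrow cells. They were the protein-coding genes whose symbol begins with Psma, Psmb, Psmc, Psmd, Psme, Psmf or Psmg and a number, which gave 50 of the 49315 genes counted and of the 21734 protein-coding ones. By the role of the protein they were 14 genes of the constitutive 20S core (7 of the alpha ring and 7 of the beta ring), 3 of the immunoproteasome, 2 tissue-restricted 20S genes, 17 of the 19S cap, 3 chaperones of 19S assembly, 4 chaperones of 20S assembly, 5 activator genes and 1 inhibitor. The remaining gene, Psmc3ip, matched by its symbol alone and encodes a partner of meiotic recombinases, not a proteasome subunit. Another 4 matching symbols were pseudogenes and were left out.

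LT-HSCs, ST-HSCs and MPPs, which are long-term and short-term hematopoietic stem cells and the multipotent progenitors that follow them, were sorted from lineage-depleted marrow of WT C57BL/6 mice and of ING4-/- mice, which lack ING4, a tumor suppressor that acts in a chromatin complex. Marrow of 8 to 10 mice was pooled, so each library is 1 pool of mice, and each combination of genotype and population has 1 library. WT controls were 8 to 12 weeks old. The age and the strain of the ING4-/- mice used for sequencing are not given in the sources used here, and no treatment is named. The comparison asks which genes differ in the 3 ING4-/- libraries from the 3 WT libraries, with the populations as replicates, as the study compared them, so a p-value here measures the spread over the 3 populations of a genotype and not over mice.

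The WT libraries held 7839326 to 9363442 counts and the ING4-/- libraries 35596876 to 39192588. Olfactory and vomeronasal receptor genes, which blood cells do not use, had 18.1 to 22.7 counts per kilobase of exon in WT and at most 0.0852 in ING4-/-, so the WT libraries carry a diffuse background. Extended evenly to all exons, it was estimated at 22.6 to 33.4% of the WT counts. Whether it is even was not tested. Depth and background follow genotype in these libraries and cannot be told apart from it. Ing4 itself had 247, 162 and 247 counts in WT, in the order LT-HSC, ST-HSC and MPP, against 0, 24 and 76 in ING4-/-, with a log2 fold change of -4.49 ± 1.56 (SE, adjusted p = 0.0373), and 34.9% of its exonic bases are shared with Gm44597 on the same strand. The background was estimated at 39.0 to 74.7% of the WT counts of Ing4.

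The proteasome is the large protease that degrades proteins marked with ubiquitin chains in the cytoplasm and nucleus. Its 20S core is a barrel of stacked alpha and beta rings in which PSMB5, PSMB6 and PSMB7 hold the active sites, and the 19S cap binds ubiquitin, unfolds the substrate and feeds it into the barrel. In cells of the immune system and after interferon, PSMB8, PSMB9 and PSMB10 take the places of PSMB5, PSMB6 and PSMB7 and form the immunoproteasome, which makes peptides for MHC class I. Hematopoietic stem cells are known to keep protein turnover under close control.

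Proteasome genes were higher in ING4-/- cells in every main class. Of the 50 genes, all of which passed the filter on low counts, 37 were called higher, at an adjusted p under 0.05 and a log2 fold change over 1. Only Psmb11 was called lower and 12 were not called. Over all 31001 genes tested, 7.98% were called higher and 56.7% lower. The median log2 fold change of the members was 1.45, and its value in single populations was 1.32, 1.59 and 1.18 in the same order (SD 0.208, n = 3). The WT libraries had counts on 36082 to 41763 genes and the ING4-/- libraries on 14680 to 16188, and the median over all genes tested was -6.85. Over the 9673 genes that reached 10 counts in each library the median was 0.52. The ratio of ING4-/- to WT was above 1 in all 3 populations for 46 members, against 44.7% of those 9673 genes. For 44 members the lowest ING4-/- value exceeded the highest WT value in CPM, the counts scaled to a common library size, against 35.9% of the same genes. For 2 members, Psme4 and Psmb11, it was the other way round, against 13.1% of the same genes, which leave out Psmb11, and 62.9% of all genes tested. By the adjusted p alone 44 members were higher, against 9.6% of genes, and 1 was lower, against 56.8%. The number called depended strongly on the processing. With the WT background subtracted 5 members were called higher, against 5.61% of genes, and with a trend on gene length removed 3 were, against 4.7%.

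**Figure D1:**
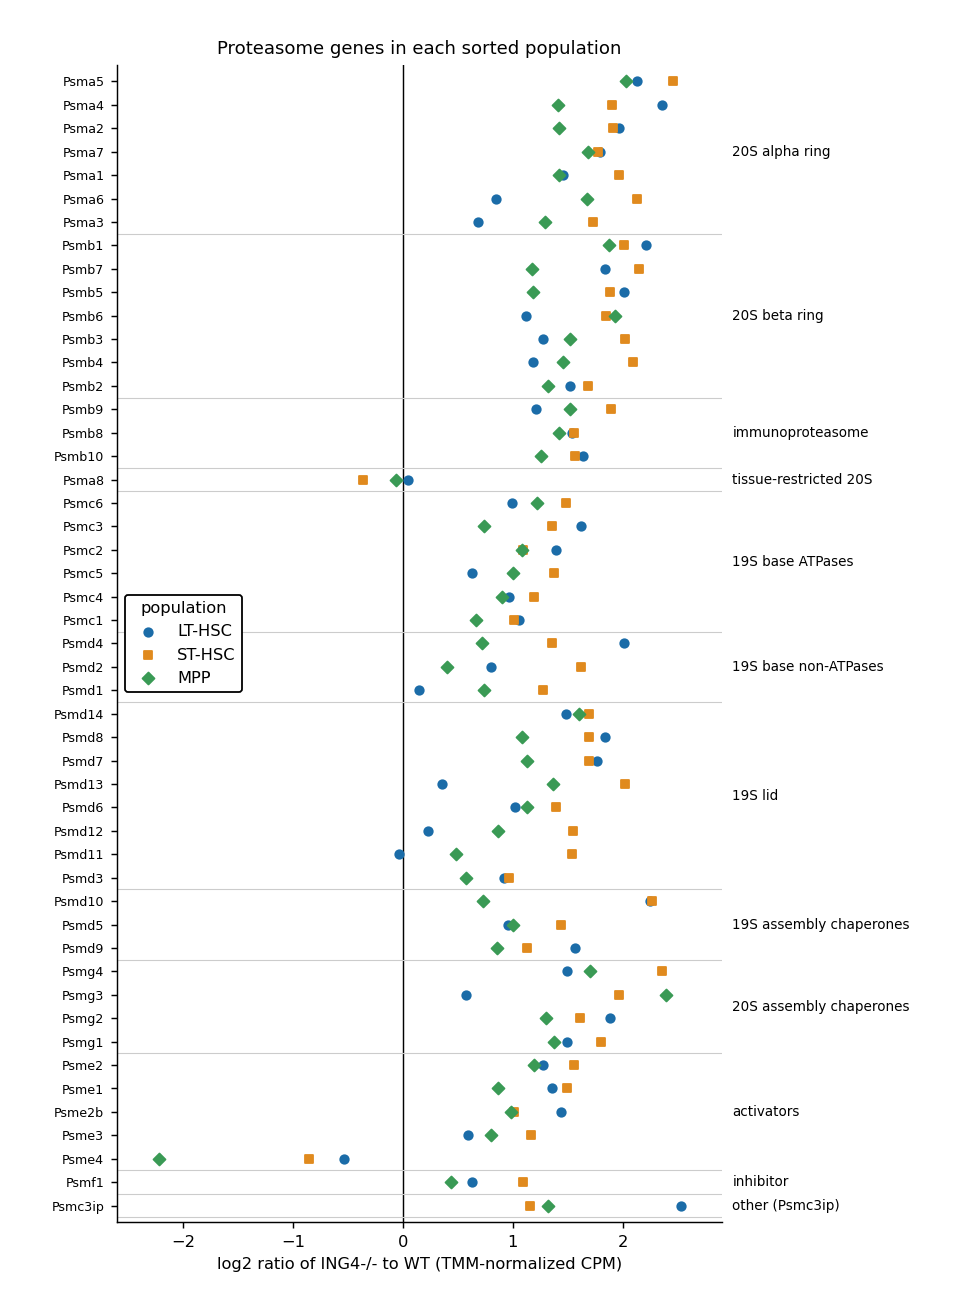
Log2 ratio of ING4-/- to WT in TMM-normalized CPM (x axis) for the proteasome genes in rows, grouped by role, with 1 marker per sorted population (circle LT-HSC, square ST-HSC, diamond MPP). Psmb11, with no counts in ING4-/-, is not drawn. Nearly all markers lie right of 0, those of Psme4 lie left of it at -0.53, -0.85 and -2.22, and those of Psma8 lie around it.

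The alpha ring, which forms the gate of the barrel, and the beta ring, which holds the active sites, were higher throughout. All 7 alpha genes and all 7 beta genes were called higher, with log2 fold changes from 1.27 to 2.22 and a median of 1.71. In the values that follow, the 3 numbers of a genotype are LT-HSC, ST-HSC and MPP, and CPM are scaled with TMM factors. Psma5 had 106, 108 and 112 CPM in WT and 465, 595 and 458 CPM in ING4-/-, a log2 fold change of 2.22 ± 0.18, adjusted p = 0.000657. Psmb1 had 131, 157 and 155 CPM in WT and 607, 636 and 570.0 in ING4-/-, with a log2 fold change of 2.03 ± 0.16, adjusted p = 0.000657. Psma4 had 69.3, 93.6 and 106 CPM against 356, 351 and 282, with a log2 fold change of 1.88 ± 0.23, adjusted p = 0.000657. In these 3 genes, which had the largest log2 fold changes of the core, every ING4-/- library lay above every WT library.

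The smallest differences of the core were found in Psma3, Psmb2 and Psma6. Psma3 had 249, 212 and 229 CPM in WT and 402, 705 and 559.6 in ING4-/- (log2 fold change 1.27 ± 0.23, adjusted p = 0.00189). Psmb2 had 135, 158 and 178 CPM and 388, 508 and 445 (log2 fold change 1.51 ± 0.19, adjusted p = 0.000657), and Psma6 had 168, 138 and 152 CPM and 302, 602 and 486 (log2 fold change 1.61 ± 0.27, adjusted p = 0.00142). The ING4-/- LT-HSC library was the lowest of its genotype in all 3 genes, and the genotypes did not overlap in any of them. With DESeq2 the log2 fold change of Psma3 was 0.92 and it was no longer called. Psma3 also has a processed pseudogene, Gm13835, that matches 665 of its bases without a mismatch, so reads from either could be counted on the other.

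Per kilobase of exon, which allows genes to be compared, the core genes were not level with each other. In ING4-/- cells Psmb1 was highest with 583 ± 31.8 CPM per kb (SD, n = 3), followed by Psma2 with 455 ± 47.7. Psma5 with 383 ± 58.5, Psma6 with 376 ± 123 and Psmb2 with 371 ± 50.0 came next and differed from each other by less than their SDs. Psmb7 had the lowest level of the core, 28.2 ± 10.8 CPM per kb in ING4-/- and 8.22 ± 1.26 in WT. Exonic length was the union over all annotated transcripts, 3421 bases for Psmb7 against 1036 for Psmb1, so unused exons lower the level of a gene on this scale.

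The active-site subunits of the constitutive barrel were higher in ING4-/- libraries, as were those of the immune barrel. Psmb5, the chymotrypsin-like subunit, had 58.2, 74.8 and 73.5 CPM in WT and 235, 276 and 168 in ING4-/- (log2 fold change 1.72 ± 0.25, adjusted p = 0.000820). Psmb6, the caspase-like subunit, had 148, 193 and 156 CPM and 321, 695 and 598 (log2 fold change 1.70 ± 0.31, adjusted p = 0.00184). Psmb7, the trypsin-like subunit, had 23.2, 31.0 and 30.2 CPM and 83.4, 138 and 68.2 (log2 fold change 1.78 ± 0.35, adjusted p = 0.00293). All 3 were called higher, with no overlap between genotypes. The WT background was estimated at 20.1 to 34.8% of the counts of Psmb7 and at 2.10 to 3.53% of those of Psmb5.

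The 3 immunoproteasome genes were called higher as well, with a median of 1.50. With the WT background subtracted 0 of the 3 were called, against 5.61% of genes, and with a trend on gene length removed 0 were, against 4.7%. Psmb8, which replaces Psmb5, had 234, 290.2 and 383 CPM in WT and 680.2, 856 and 1028 in ING4-/- (log2 fold change 1.50 ± 0.24, adjusted p = 0.00118). Psmb9, which replaces Psmb6, had 102, 118 and 127 CPM and 236, 439 and 364 (log2 fold change 1.58 ± 0.26, adjusted p = 0.00128), and 5.79% of its exonic bases overlap Tap1 on the opposite strand. Psmb10, which replaces Psmb7, had 84.2, 106 and 152 CPM and 264, 314 and 364 (log2 fold change 1.46 ± 0.27, adjusted p = 0.00201). In both genotypes Psmb8 and Psmb10 were lowest in LT-HSCs and highest in MPPs.

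**Figure D2:**
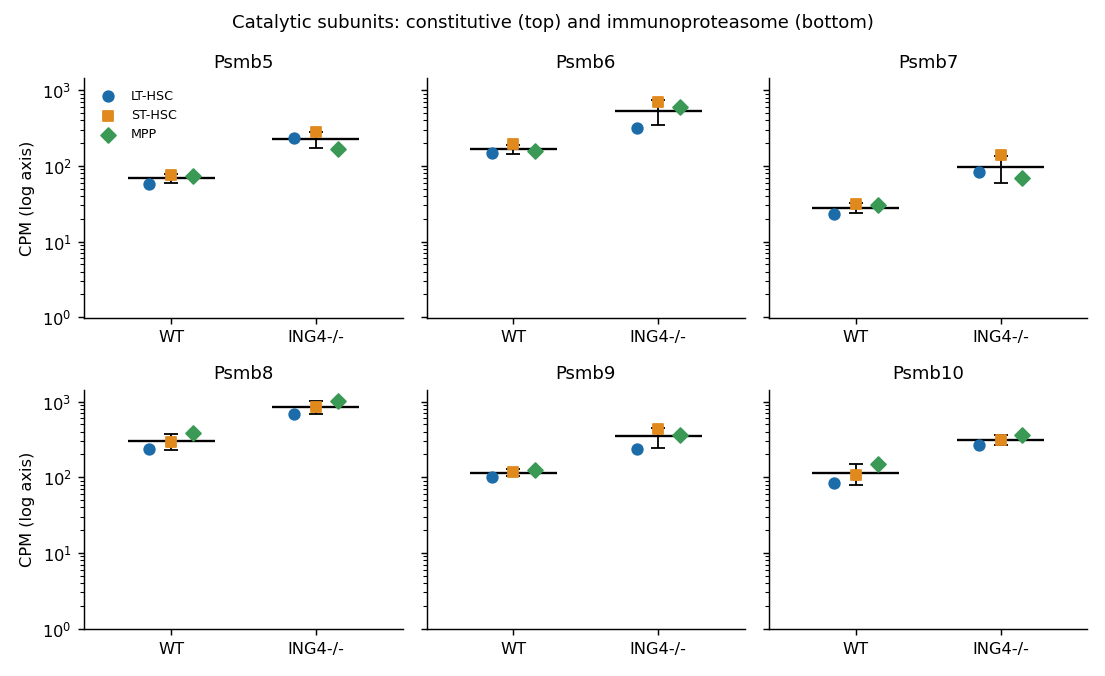
CPM on a log axis of the constitutive active-site genes Psmb5, Psmb6 and Psmb7 (top) and their immunoproteasome counterparts Psmb8, Psmb9 and Psmb10 (bottom) in WT and ING4-/-. Markers are the libraries (circle LT-HSC, square ST-HSC, diamond MPP), lines the mean and bars the SD of 3 libraries. In each of the 6 panels the ING4-/- libraries lie above the WT libraries.

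The balance between the immune and the constitutive active sites had overlapping ranges in the genotypes. Per kilobase, the ratio of Psmb8 to Psmb5 was 1.28, 1.23 and 1.66 in WT and 0.922, 0.986 and 1.95 in ING4-/-. The ratio of Psmb9 to Psmb6 was 0.353, 0.313 and 0.414 in WT and 0.376, 0.323 and 0.311 in ING4-/-, and that of Psmb10 to Psmb7 was 7.30, 6.88 and 10.1 in WT and 6.34, 4.56 and 10.7 in ING4-/-. The immune subunits made up 53.9% ± 5.18 (SD, n = 3) of the summed level of the 6 genes in WT and 50.8% ± 5.33 in ING4-/-, and all these ranges overlapped. By population the share was 51.6, 50.3 and 59.9% in WT and 50.1, 45.8 and 56.4% in ING4-/-. It was thus lower in ING4-/- in each population, which was not tested, and highest in the MPP library of each genotype. The WT shares include the background, whose part was not tested.

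The promoters of the paired active-site genes are shown because the factors thought to drive the 2 kinds of barrel read different letters: NRF1 binds antioxidant response elements in front of constitutive subunit genes, and interferon-activated factors bind interferon-stimulated response elements. The 250 bases before the start are given 5′ to 3′ on the strand of the gene, from RefSeq on GRCm38.p6. Psmb5 is chr14:54617996-54618245 on the minus strand, Psmb8 is chr17:34197945-34198194 on the plus strand, Psmb6 is chr11:70525107-70525356 on the plus strand and Psmb9 is chr17:34187331-34187580 on the minus strand. Capitals mark a match to TGACNNNGC, the antioxidant response element core, in Psmb5 and Psmb6, and a match to CCAAT, the NF-Y box, on the opposite strand in Psmb9. The window of Psmb8 held no match to either, nor to the interferon-stimulated response element core, which was searched as GAAA, any 2 bases and GAAA. In the deposited mm10 positions Psmb8 spans chr17:34197721-34201454 and Psmb9 spans chr17:34181988-34187764. The printed windows of Psmb8 and Psmb9 therefore lie inside the counted genes, and sequence before their outermost starts was not searched.
Psmb5: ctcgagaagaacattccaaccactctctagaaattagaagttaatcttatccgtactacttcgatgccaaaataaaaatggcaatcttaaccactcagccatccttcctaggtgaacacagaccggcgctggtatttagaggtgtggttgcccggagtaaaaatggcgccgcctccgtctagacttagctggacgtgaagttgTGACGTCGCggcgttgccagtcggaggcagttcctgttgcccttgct
Psmb8: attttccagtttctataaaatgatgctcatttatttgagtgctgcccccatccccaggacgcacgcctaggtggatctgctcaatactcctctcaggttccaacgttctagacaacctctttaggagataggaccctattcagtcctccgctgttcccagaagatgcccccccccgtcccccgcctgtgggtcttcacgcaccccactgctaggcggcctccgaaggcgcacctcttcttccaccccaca
Psmb6: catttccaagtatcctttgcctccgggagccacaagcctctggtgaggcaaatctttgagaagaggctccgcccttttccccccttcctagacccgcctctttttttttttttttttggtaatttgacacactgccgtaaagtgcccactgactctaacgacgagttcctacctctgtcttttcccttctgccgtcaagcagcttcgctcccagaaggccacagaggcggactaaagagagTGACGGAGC
Psmb9: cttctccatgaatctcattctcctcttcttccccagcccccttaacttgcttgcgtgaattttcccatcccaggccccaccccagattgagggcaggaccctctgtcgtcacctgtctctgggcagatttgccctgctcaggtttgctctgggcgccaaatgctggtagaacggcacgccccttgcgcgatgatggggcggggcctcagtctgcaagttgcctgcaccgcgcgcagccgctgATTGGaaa

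A promoter window of 250 bases before and 50 after the start was found for 42 of the 50 members. TGACNNNGC, searched on both strands, was found in the windows of 6 of the 42 genes, or 14.3%, against 12.4% of all 32851 windows. CCAAT was found in 15, or 35.7%, against 37.4%, and 6 of the 11 core genes with a window held it. The interferon-stimulated response element core was found in 5, or 11.9%, against 3.44%, and in none of the 3 immunoproteasome genes. No motif holds the letters of another, and a match of letters is a description of the sequence only.

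The 19S cap was higher by less. All 17 genes had a positive log2 fold change, 15 had an adjusted p under 0.05, and 10 of them also passed a log2 fold change of 1 and were called. The median was 1.18, with a range from 0.74 to 1.61. By role, 4 of the 6 ATPases that ring the entrance of the barrel were called, 1 of the 3 large scaffold and receptor subunits of the base, and 5 of the 8 lid subunits.

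The highest of the cap were genes of the lid. Psmd14, the deubiquitinase that removes ubiquitin chains from substrates, had 81.4, 110.5 and 97.5 CPM in WT and 228, 359 and 296 in ING4-/- (log2 fold change 1.61 ± 0.24, adjusted p = 0.000819). Psmd8, another lid subunit, had 76.9, 125 and 145 CPM and 276, 405 and 307 (log2 fold change 1.51 ± 0.29, adjusted p = 0.00245), and Psmd7, the partner of PSMD14 in the lid, had 101, 119 and 156 CPM and 342, 385 and 342 (log2 fold change 1.51 ± 0.21, adjusted p = 0.000729). The ING4-/- libraries of these 3 genes lay above all WT libraries.

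Psmd1, a scaffold of the base, had 236, 180.0 and 181 CPM in WT and 262, 437 and 303 in ING4-/-, a log2 fold change of 0.74 ± 0.25, adjusted p = 0.0304 that stayed under 1. Psmd3, a lid subunit, had 129, 109 and 192 CPM and 244, 213 and 287 (log2 fold change 0.79 ± 0.26, adjusted p = 0.0313). Psmd11, a lid subunit whose level is known to limit proteasome activity in pluripotent stem cells, had 77.8, 90.4 and 92.6 CPM and 75.9, 263 and 129.9 (log2 fold change 0.85 ± 0.44, adjusted p = 0.133). The ING4-/- LT-HSC library of Psmd11 lay below every WT library, so the genotypes overlapped, and without that library Psmd11 passed both thresholds with a log2 fold change of 1.20 (adjusted p = 0.0129). The same library was the lowest of its genotype in Psmd1, and also in Psmd12 with 112, 303 and 208 CPM and in Psmd13 with 76.2, 289 and 171 CPM.

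The difference between core and cap was of the same sign in every population. The median log2 ratio of the core exceeded that of the cap by 0.67, 0.54 and 0.54 in LT-HSC, ST-HSC and MPP libraries (SD 0.072, n = 3), and by 0.52 in the fit over all libraries. The immunoproteasome, with a median of 1.54, 1.56 and 1.42 in the 3 populations, lay between the core at 1.66, 1.94 and 1.44 and the cap at 0.99, 1.40 and 0.90. Within each library, the median log2 CPM of the core was above that of the cap by 0.39, 0.27 and 0.28 in WT and by 0.70, 1.01 and 0.98 in ING4-/-, with no overlap. Genes of a complex are not replicates, so no p-value is given for these differences. The core genes were shorter, with a median exonic length of 1912 bases against 2808 in the cap, and when the trend on length was removed from the 9673 genes that reached 10 counts in each library, the difference between core and cap was 0.23.

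**Figure D3:**
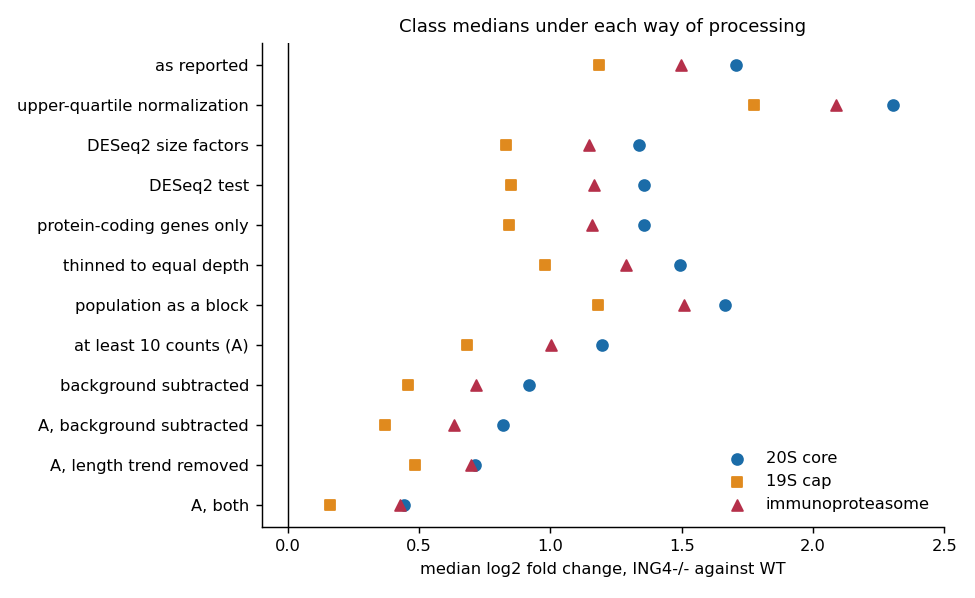
Median log2 fold change of ING4-/- against WT (x axis) for the 20S core (circles), the 19S cap (squares) and the immunoproteasome (triangles) under each way of processing (rows); A stands for 10 counts or more in each library. All medians lie above 0, from 0.16 for the cap with length trend and background removed to 2.30 for the core with upper-quartile normalization, and the core lies right of the cap in every row.

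The size of the difference depended on the processing. With only those 9673 genes, whose median was then 0.02, the member median was 0.97 and 21 of 49 members were called higher, against 8.3% of those genes, and none lower, against 9.68%. These were 13 of 14 core genes, 3 of 17 cap genes and 2 of 3 immunoproteasome genes, along with 3 of the other members, Psmg1, Psmg2 and Psmg4. With the WT background subtracted from all counts, 5 members were called higher, against 5.61% of genes, namely Psma4, Psma5, Psmb1, Psmb7 and Psmg4, none was lower, against 38.7%, and the member median was 0.72. With the length trend removed 3 were called, against 4.7% of genes, namely Psma5, Psma7 and Psmd5. With length trend and background both removed none was, while the member median was 0.37. The share of all genes called in that last setting is not given here, so its absence of calls says nothing about the members. All members called in these settings were among the 37.

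Gene length moved with the fold changes. Over the 49 members other than Psmb11, exonic length and log2 fold change had a Spearman correlation of -0.46, and over the 9673 genes with at least 10 counts it was -0.51, both as a description across genes of the same libraries. The background estimated in WT also grows with exonic length, and with it subtracted the correlation over the members was -0.34. With the length trend of all genes removed it turned to 0.47 over the members, 0.62 over the core and 0.84 over the cap, so in that setting the longer members tended to have the higher values, which bears on its 3 calls and on its difference of 0.23 between core and cap. Among the genes of up to 2071 bases, 11 of 20 members were called higher in the fit of those 9673 genes, against 25.5% of all genes of that length, and 15 of the 20 lay above the median of their length group. Among those of 2072 to 3293 bases, 8 of 16 were called, against 9.41%, and all 16 lay above the median. Among those of 3294 to 4694 bases 2 of 5 were called, against 4.24%, and all 5 lay above the median. Of the 8 members of at least 4696 bases none was called, against 1.86% and 0.465% in the 2 groups of the longest genes, and 7 of the 8 lay above the median of their group.

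**Figure D4:**
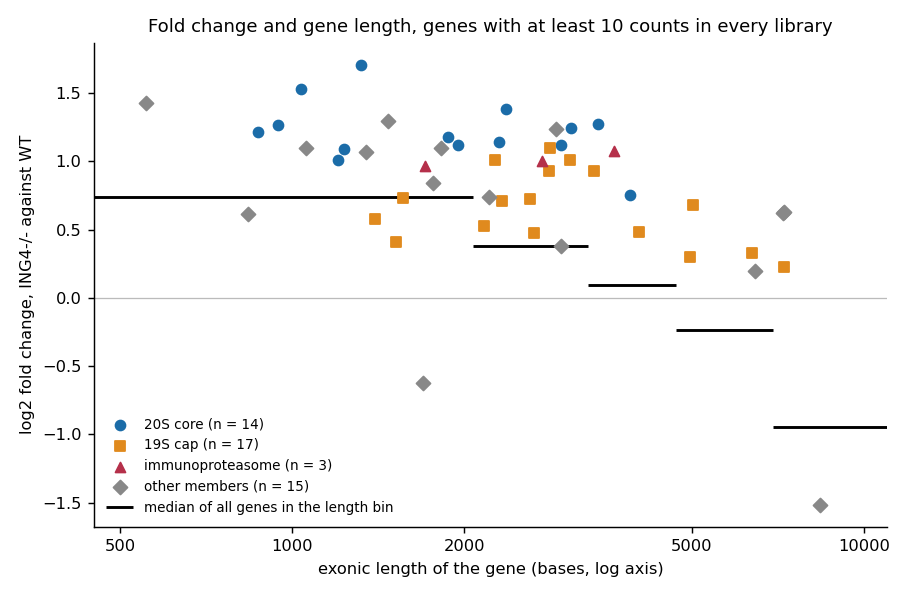
Log2 fold change of ING4-/- against WT (y axis) against exonic length in bases (log axis) for the 49 members that reached 10 counts in each library, in the fit of those genes; black lines are the medians of all genes in 5 groups of equal size by length. Medians fall from 0.74 in the shortest group to -0.94 in the longest, and most members lie above the line of their group.

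Chaperones that build the barrel were higher in ING4-/- libraries. All 4 genes of 20S assembly were called, with a median of 1.69. Psmg1 had 42.3, 49.1 and 45.0 CPM in WT and 119, 172 and 117 in ING4-/- (log2 fold change 1.58 ± 0.25, adjusted p = 0.00102), and its partner Psmg2 had 37.5, 54.8 and 43.2 CPM and 139, 168 and 107 (log2 fold change 1.61 ± 0.28, adjusted p = 0.00145). Psmg3 had 23.8, 30.6 and 16.5 CPM and 35.5, 119.9 and 87.1 (log2 fold change 1.77 ± 0.51, adjusted p = 0.0166), and its partner Psmg4 had 18.2, 24.0 and 25.3 CPM and 51.6, 124 and 82.8 (log2 fold change 1.93 ± 0.40, adjusted p = 0.00342). Psmg3 is the least certain of the 4, with an adjusted p of 0.0538 without the WT LT-HSC library and 0.0759 without the WT MPP library.

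The 3 chaperones of 19S assembly were called as well. Psmd10, also known as gankyrin, had 16.4, 25.8 and 32.1 CPM in WT and 78.3, 125 and 53.1 in ING4-/- (log2 fold change 1.79 ± 0.43, adjusted p = 0.00786), and its MPP difference was the smallest with a log2 ratio of 0.73. Psmd5, which holds ATPases of the base during assembly, had 135, 115 and 147 CPM and 263, 312 and 294 (log2 fold change 1.13 ± 0.18, adjusted p = 0.00113), and a log2 fold change of 0.99 without the WT ST-HSC library. Psmd9, of the same function, had 20.9, 39.5 and 45.5 CPM and 61.8, 86.5 and 82.4 (log2 fold change 1.12 ± 0.37, adjusted p = 0.0305). Its adjusted p lay between 0.0505 and 0.0664 without any library other than the ING4-/- LT-HSC one, 28.3 to 82.0% of its WT counts were estimated as background, and 25.5% of its exonic bases overlap Gm26745 on the opposite strand.

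The activators, which open the barrel in place of the 19S cap, were split. Psme1 and Psme2, the subunits of the interferon-induced PA28 ring, were called higher. Psme1 had 185, 181 and 220.3 CPM in WT and 473, 509.5 and 401 in ING4-/- (log2 fold change 1.24 ± 0.18, adjusted p = 0.000719), and 0.91 with DESeq2, under the threshold. Psme2 had 113, 122 and 128 CPM and 274, 358 and 292 (log2 fold change 1.35 ± 0.18, adjusted p = 0.000667), but it is 99.4% identical to Psme2b over 794 bases, so counts of the pair are uncertain. Psme2b had 5.79, 11.1 and 10.1 CPM and 15.9, 22.5 and 20.1 (log2 fold change 1.12 ± 0.51, adjusted p = 0.0933) and was not called.

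Psme3, the nuclear PA28 gamma, had 119, 143 and 147 CPM in WT and 179.8, 322 and 256 in ING4-/- (log2 fold change 0.89 ± 0.25, adjusted p = 0.0162), short of the fold threshold, which it passed without the ING4-/- LT-HSC library at 1.11. Psme4, which encodes PA200, the activator linked to histone degradation, was the exception of the group. It had 57.3, 67.6 and 52.4 CPM in WT and 39.6, 37.4 and 11.2 in ING4-/-, lower in each population with no overlap, and a log2 fold change of -1.01 ± 0.50, adjusted p = 0.120, which was not called. It is the longest member with 8382 exonic bases, and 28.4 to 34.5% of its WT counts were estimated as background. With all libraries thinned to equal depth it was called lower at -1.39 (adjusted p = 0.0482). The inhibitor gene Psmf1, which encodes PI31, had 68.1, 49.8 and 82.6 CPM and 106, 106 and 112 (log2 fold change 0.69 ± 0.25, adjusted p = 0.0449).

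The tissue-restricted 20S genes did not follow the core. Psma8, the alpha subunit of the testis proteasome, had 23.2, 19.6 and 15.3 CPM in WT and 23.9, 15.2 and 14.7 in ING4-/- (log2 fold change -0.11 ± 0.47, adjusted p = 0.857), and its sign changed between populations and with upper-quartile normalization, to 0.49. Psmb11, the beta subunit of the thymoproteasome, had 71, 38 and 58 counts in WT and 0 in every ING4-/- library, so it passed the filter on low counts through WT alone. Its counted level was at least 61.8-fold lower against a floor of 3 counts per library, a mean of 0.0931 CPM in ING4-/- with TMM factors. The background estimated for a gene of this length came to between 132.5 and 254% of those WT counts, more than was counted. In the deposited mm10 positions Psmb11 lies at chr14:54625310-54629556 on the chromosome of Psmb5, which lies at chr14:54614120-54617995.

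Psmc3ip had 6.95, 15.6 and 14.5 CPM in WT and 40.6, 35.0 and 36.4 in ING4-/- (log2 fold change 1.59 ± 0.47, adjusted p = 0.0187) and was called higher. In the fit with population as a block, where 6.45% of all genes were called higher and 54.4% lower, 37 members were higher and 1 lower, and Psmc3ip was the only member that lost its call (adjusted p = 0.0759) while Psmc5 gained one. The call was also lost without the WT LT-HSC library (0.0625) and without the WT MPP library (0.0574). Of its exonic bases, 21.2% overlap Mlx on the opposite strand.

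Psmb5 has a near copy that differed between genotypes more than Psmb5 did. Gm3375, a processed pseudogene of Psmb5 at chr7:3181093-3181888 on the plus strand, aligned to the Psmb5 transcript over 795 bases with 8 mismatches and 1 gap, an identity of 99.0%. It was counted 5, 2 and 6 times in WT and 953, 1226 and 583 times in ING4-/-, with a log2 fold change of 6.00 ± 0.74 (SE, adjusted p = 0.000657). It made up 0.287 to 0.896% of the counts of Psmb5 and Gm3375 together in WT and 9.30 to 12.3% in ING4-/-. The log2 ratio of mean CPM was 1.72 for Psmb5 and 1.88 with the copy added. Gm3375 was named after its values were seen. The 75 bases of the Psmb5 transcript from position 294 to 368 and those of Gm3375 from 264 to 338 are shown because they hold 2 of the mismatches, in capitals. The longest stretch without a mismatch was 194 bases, and the read length is not given in the sources used here.
Psmb5: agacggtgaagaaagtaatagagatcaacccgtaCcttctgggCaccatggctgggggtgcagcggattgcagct
Gm3375: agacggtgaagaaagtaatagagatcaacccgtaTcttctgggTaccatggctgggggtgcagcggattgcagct

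**Figure D5:**
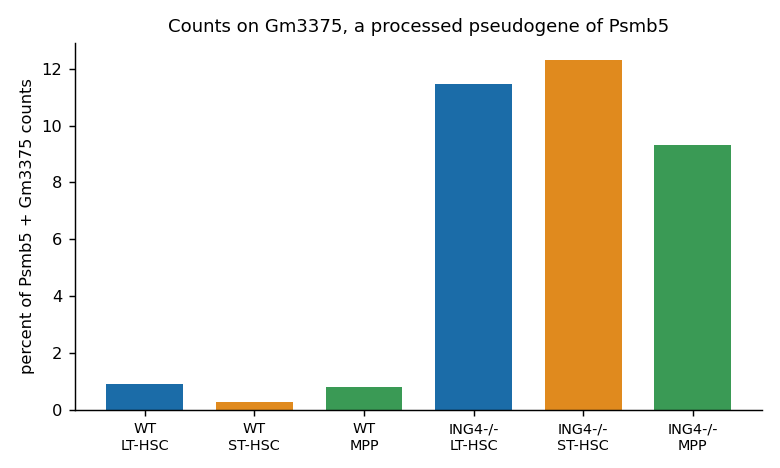
Counts of Gm3375 as percent of the counts of Psmb5 and Gm3375 together (y axis, from 0) in each of the 6 libraries, with 1 bar per library. The WT bars reach at most 0.896% and the ING4-/- bars lie between 9.30 and 12.3%.

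Other members share sequence too. A transcript of another gene with at least 90% identity over at least 200 bases was found for 17 of the 50 members. On the same strand 4 members share exonic bases with another gene, and 12 do so on the opposite strand. The strand setting of the counting is not given in the sources used here, so reads of such pairs cannot be told apart.

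Between MPPs and LT-HSCs, compared in a fit with genotype and population, 42 of the 50 members had a higher level in MPPs, and the median log2 difference was 0.25 against 0.03 over all genes tested. None of the 50 was called by edgeR and none with DESeq2, but edgeR called 0.0% of all genes in this comparison, so the absence of calls says nothing about the members. At an unadjusted p under 0.05 there were 4 of 50, against 1.81% of all genes, and the adjusted p was 1.00 for each. These were Psmc5, an ATPase of the base, with a log2 difference of 1.21 ± 0.29 (SE), Psmd6 of the lid with 0.69 ± 0.24, Psmb10 with 0.66 ± 0.21 and Psmb8 with 0.65 ± 0.15, all higher in MPPs. Psmc5 had 51.1, 84.5 and 105 CPM in WT and 78.9, 219 and 209.9 in ING4-/-, lowest in LT-HSCs of both genotypes. The median difference was 0.65 over the 3 immunoproteasome genes, 0.33 over the cap and 0.14 over the core.

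Genes that work with the proteasome were read from lists of the pathway, whose counts stand against the 7.98% of all genes called higher. Of 4 proteasome genes with other symbols, 2 were called higher, Sem1, a small lid subunit, at 1.99 ± 0.25 (SE, adjusted p = 0.000657) and Pomp, the maturation factor of the barrel, at 1.46 ± 0.28. Ecpas, an adaptor of the proteasome, was lowest at -0.075. Among ubiquitin genes the fusion gene Rps27a, which encodes ubiquitin joined to a ribosomal protein, was called higher at 2.66, while the polyubiquitin gene Ubb had 0.78 ± 0.13 and was not called. Of 17 genes for ubiquitin activation, shuttles and deubiquitinases 4 were called higher, with a median of 0.80, the highest at 2.80 for Ubqln2 and the lowest at -0.53 for Ube3c. The value of Ubqln2 (2.80 ± 0.98, adjusted p = 0.0389) rests on 1, 21 and 13 counts in WT. The background estimated for a gene of its length was larger, 74.9, 76.0 and 60.5 counts.

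Of 9 regulators of proteasome genes 1 was called higher, a share near that of all genes. It was Ngly1, the glycanase that processes NRF1, at 1.19 ± 0.27 (SE, adjusted p = 0.00612). Nfe2l1, which encodes NRF1, had -0.47 ± 0.38, Nfe2l2 had 0.56 ± 0.31, and Nfya was lowest at -0.86 ± 0.83. Of 12 genes of class I antigen processing and its interferon control 4 were called higher, namely B2m at 1.50 ± 0.12, H2-D1 at 1.19 ± 0.18, H2-K1 at 1.15 ± 0.17 and Tapbp at 1.09 ± 0.23. Tap1, the neighbor of Psmb9, had 0.31 ± 0.25 and was not called. Nlrc5, the transactivator of class I genes, was called lower at -2.25 ± 0.34 (SE, adjusted p = 0.000848).

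Markers of other cells were read beside these values. The sorted cells carried their own markers, with Kit at 378 to 696 CPM in WT and 537 to 1000 in ING4-/-, and none of 8 HSPC markers was at 0 in a genotype. The summed CPM of 8 erythroid markers was 1163 to 1341 in WT and 3440 to 4104 in ING4-/-, most of it from Car2. The B cell markers Cd79a, Ms4a1 and Ebf1, and Cd3e, Cd3g and Gzma of 6 T and NK cell markers, had no counts in any ING4-/- library. Summed granulocyte markers were 41.0 to 56.7 CPM in WT and 50.1 to 75.2 in ING4-/-, those of macrophages and dendritic cells 113 to 128 and 58.9 to 247, and those of dissociation stress 3979 to 6913 and 2878 to 6682. In sorted bulk RNA, fewer cells of a type and less RNA per cell cannot be told apart, and the part of the erythroid markers in the proteasome values was not tested.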

How the data were processed

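RNA from LT-HSCs, ST-HSCs and MPPs of WT and ING4-/- mice, sorted from pooled marrow, was sequenced in bulk by a company for the authors. The authors deposited raw counts per gene, with no normalization, on mm10 per the labels. The aligner, the counting program and the strand setting are not given in the sources used here. Samples were grouped by the genotype in their labels. Of 49315 identifiers, 48970 were found in GENCODE M21 and 345 were not. Positions of 39 of the 50 members were identical there.

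From the counts, 3 ING4-/- libraries were compared with 3 WT libraries in edgeR 4.0.16 under R 4.3.3. Low genes were filtered by genotype with filterByExpr, libraries were scaled with TMM, and the quasi-likelihood test was applied, with Benjamini-Hochberg adjustment over all 31001 genes tested. A gene was called if its adjusted p was under 0.05 and its log2 fold change was over 1 in size. The SE was obtained as the size of the log2 fold change over the root of F. Ratios within a population used log2 CPM with a prior count of 2 and no test. Background was the counts per kb of exon over 1429 olfactory and vomeronasal receptor genes.

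Libraries of a population deviated together from their genotype means (over 9673 genes r = 0.143, 0.110 and 0.121 for LT-HSC, ST-HSC and MPP), so the populations pair the libraries, and population entered as a block in an alternative fit. None was a repeat deposit, since the chi-square per degree of freedom between libraries of a genotype was 14.1 or more. The other alternatives were DESeq2 1.42.0, its size factors, upper-quartile scaling, other filters, protein-coding genes only, thinning to equal depth, background subtraction, removal of a lowess trend on length (span 0.5) and leaving out each library. Background subtraction with the minimum of 10 counts, with and without the length trend, was added after seeing the data. The fits were also run on simulated counts, which carried no WT background and no length trend, so that run cannot speak to either.

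The members and lists were chosen with earlier results of these data known. Genes named with values were Ing4, the active-site genes and their immune counterparts, the 3 highest and 3 lowest fold changes of the core and of the cap, every member outside both, and the highest and lowest gene of each pathway list. Others were named after their values were seen. Some genes of the pathway and marker lists are not reported here. The floor behind a 0 was set at 3 counts per library, for counting error only. By total counts, without TMM factors, this was 0.320 to 0.383 CPM in WT and 0.0765 to 0.0843 in ING4-/-. Promoters were taken from RefSeq on GRCm38.p6. Protein sequences, GC content and flow cytometry were not used here.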

Additional observations from a re-analysis of the deposited data

Results flagged for a closer look

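The log2 ratio of Psma8 and of Psmd11 changed sign between populations, with 1 library per genotype in each, so the difference was not tested. In both genes the LT-HSC value, whose sign differed from the others, was small. For Psma8 the log2 ratio of ING4-/- to WT was 0.047, -0.36 and -0.060 in LT-HSC, ST-HSC and MPP libraries. For Psmd11 it was -0.036, 1.54 and 0.49 in the same order.

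Among the pseudogenes that match a member closely and are not members themselves, Gm3375 and Gm13835 were above the WT level in every ING4-/- library. Gm3375, the copy of Psmb5, had a lowest ING4-/- value of 17.2 CPM and a highest WT value of 0.589 CPM. Gm13835, the copy of Psma3, had a lowest ING4-/- value of 4.25 CPM and a highest WT value of 2.11 CPM. Each genotype has 3 libraries, too few for a test of single outlying libraries.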

How the results depend on the processing

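The number of members called higher was within 1.5 times of 37 with DESeq2 size factors, the DESeq2 test, protein-coding genes only, thinning to equal depth, upper-quartile scaling, no filter, and the adjusted p alone. It was 21 with a minimum of 10 counts in every library, 5 with background subtracted, 3 with the minimum and background subtracted, 3 with the minimum and length trend removed, and 0 with all of these. For the settings that join the minimum with background subtraction, the share of all genes called is not given here. Members called lower were 0 in those 5 settings, which leave out Psmb11 (1 fewer member tested), and 2 when thinned. With population as a replicate block, 37 members were called higher, 36 of them shared with the 37 reported, and the pairing changed no other named call than that of Psmc3ip, which was lost, and that of Psmc5, which was gained. Without 1 library each, 31 to 42 members were called.

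The member median of 1.45 became 2.05 with upper-quartile scaling, 1.21 when thinned, 1.12 with the DESeq2 test, 1.10 with its size factors, 1.11 with protein-coding genes, 0.97 with the minimum, 0.72 with background subtracted, 0.63 with the minimum and background, 0.60 with the minimum and length trend, and 0.37 with all of these, and 1.28 to 1.56 without 1 library each. The core exceeded the cap by 0.45 with the minimum and background, 0.23 with the length trend, 0.28 with all of these, and 0.47 to 0.62 without 1 library each. Of 17 cap genes, 17 were called with upper-quartile scaling, 5 when thinned, 4 with DESeq2, its size factors or protein-coding genes, 3 with the minimum and 0 in the other 4 settings. Core calls were 4, 3, 2 and 0 of 14 in those 4 settings, and immunoproteasome calls 0 of 3.

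Of 607 values of the 34 named members over 18 settings, 462 kept direction and call, 128 lost the call and 9 gained one. In 8 the sign changed. Psma8 was 0.49 with upper-quartile scaling, 0.020 and 0.041 without the ING4-/- ST-HSC or MPP library and 0.0019 without the WT LT-HSC library, within a range of -0.37 to 0.041 over the 6 libraries left out. Psmd1 was -0.069 with the minimum and background, Psme2b -0.15 with the minimum and length trend, and with background removed too Psme2b was -0.18 and Psme3 -0.13. The cause of these changes was not tested. WT depth and background limit members of few counts, such as Psme2b, Psmc3ip and Psmb11.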

Other observations

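The near copies of the members did not share 1 pattern. Gm6884, a processed pseudogene of Psmb3, was counted 187, 126 and 107 times in WT, in the order LT-HSC, ST-HSC and MPP, and 0 times in every ING4-/- library. Gm14227, another copy of Psmb3, was counted 74, 74 and 85 times in WT and 237, 5 and 0 times in ING4-/-. Gm7776, a copy of Psme1, was counted 172, 164 and 127 times in WT and 14, 9 and 12 times in ING4-/-. Gm8394, a copy of Psma5 with 98.6% identity over 952 bases, was counted 12, 24 and 28 times in WT and 51, 69 and 63 times in ING4-/-, against 1004, 1007 and 1142 counts of Psma5 in WT and 14542, 18814 and 15525 in ING4-/-. Psmb5-ps, another copy of Psmb5 with 92.0% identity, had 23, 17 and 18 counts in WT and 0, 0 and 1 in ING4-/-. These genes were picked after their values were seen.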
